A study of Homo sapiens with 26 samples.

Results

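The genes described here encode 10 surface proteins of leukaemic or myeloid cells that are antibody targets or immune checkpoints: CD33, CLEC12A, CD47, CD38, LILRB4, SIRPA, CD86, CD93, CD274 and HAVCR2. They were taken by gene symbol from every deposited expression table. The count tables of the drug experiment list 9 of them among 16430 genes, and CD274 has no row there. The FPKM tables of the recovery experiment list all 10, in 14 of their 64235 entries, because LILRB4 has 5 entries.

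Every library was made from MV4-11, a human line of acute myeloid leukaemia whose FLT3 gene carries an activating mutation. In the drug experiment, 6 groups had 3 libraries each. Cells were kept for 48 h in DMSO, in 100 nM of the glucocorticoid dexamethasone, in 10 nM of the FLT3 kinase inhibitor quizartinib or in both drugs, and for 5 days in quizartinib or in both drugs, 18 libraries in all. In the 5-day combination dexamethasone was added on day 3. No DMSO group was kept for 5 days, so against DMSO drug and longer culture cannot be told apart at 5 days. The recovery experiment had 4 groups with 2 libraries each, 8 in all, from untreated cells, cells surviving 48 h in 100 nM quizartinib, and survivors kept for 13 or 30 days without drug. The sample labels call its control untreated, while the series text names DMSO. The labels do not say whether libraries of a group were separate cultures. The p-values therefore measure the spread between these libraries only.

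CD33 and CLEC12A are lectin-type receptors of myeloid cells with inhibitory cytoplasmic motifs, and both are pursued as antibody targets in acute myeloid leukaemia. Myeloid leukaemia cells also carry molecules that restrain the cells meant to remove them: CD47 signals through SIRPA on phagocytes to block engulfment, CD274 (PD-L1) engages PD-1 on T cells, LILRB4 is an inhibitory receptor of monocytic cells, and HAVCR2 (TIM-3) is a checkpoint receptor of T cells that leukaemic stem cells share. CD86 acts the other way, as a costimulatory ligand of CD28, although it also binds the inhibitory receptor CTLA4. Receptors with inhibitory cytoplasmic motifs, such as CD33 and CLEC12A, recruit the phosphatases PTPN6 and PTPN11, and interferon gamma is the classical inducer of CD274.

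Total counts per drug library ran from 14795190 to 24990476. Between them, 7SK and 7SL, abundant noncoding RNAs, accounted for between 9.74% (a dexamethasone library) and 31.6% (replicate 3 of the 48 h combination) of them, and leaving them out of the fit left every call of a member as it was. All 8 genes of the myeloid identity list (FLT3, PTPRC, SPI1, HOXA9, MEIS1, LYZ, MPO, CSF1R) were present. Their summed level was at 1382 to 1705 CPM (read counts scaled to the TMM-adjusted library size) in DMSO, 922 to 1000.5 CPM with dexamethasone and 1863 to 2335 CPM with quizartinib at 48 h. The drop with dexamethasone was mostly that of LYZ, from 685 ± 153 to 113.5 ± 12.5 CPM (SD, n = 3 each). By gene, 0 of the 8 rose and 3 fell with dexamethasone (LYZ, CSF1R and PTPRC), where edgeR called 12.1% of all genes. With quizartinib at 48 h 4 rose and 2 fell, where edgeR called 59.4% of all genes. The part of these changes in the members' results was not tested. Of the other cell types' lists, 2 of 9 T and NK cell genes (NKG7 and NCAM1, with no row for CD3D, CD3E or CD3G), 4 of 5 B cell genes, 1 of 4 erythroid and megakaryocyte genes, 1 of 3 endothelial genes and 1 of 3 fibroblast and epithelial genes had a row in the count tables. Their summed levels were at most 22.7, 4.63, 4.98, 2.16 and 2.55 CPM. Some of them moved with the drugs: edgeR called NKG7 higher with dexamethasone, CD79A higher with quizartinib at 48 h, COL1A1 higher in the 48 h combination against DMSO, and VWF lower after 5 days of quizartinib. In bulk RNA, a change in the number of cells that express a gene and a change in RNA per cell cannot be told apart.

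In untreated cells, FPKM (fragments per length and library size) ordered the genes over a wide range, each with its replicates 1 and 2. CD33 stood at 118 and 111 FPKM, CD47 at 28.02 and 45.6, and SIRPA at 33.7 and 27.4. CLEC12A was at 7.35 and 16.7 FPKM, CD38 at 8.70 and 1.08, and the largest LILRB4 entry at 3.62 and 2.94. By FPKM the antibody target CD33 was thus well above the rest. The ranges of CD47 and SIRPA overlapped, and those of CLEC12A, CD38 and LILRB4 ran into each other. HAVCR2 was at 0.508 and 0.644 FPKM, CD86 at 0.486 and 0.591, CD93 at 0.221 and 0.655, and CD274 at 0.0213 and 0.0247. The first 3 of these overlapped, and CD274 was the lowest in both libraries. The counts of the drug experiment, which are not scaled to gene length, had another order. Their DMSO means were 129.5 CPM for SIRPA, 121.8 CPM for LILRB4 and 76.7 CPM for CD33. Whether LILRB4 reads were split or lost among its 5 FPKM entries was not tested, so its place in the FPKM order is uncertain.

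Promoter windows are shown for the member that dexamethasone lowered both alone and on top of 5 days of quizartinib (CD86, with 2 annotated starts), the member with letters of the glucocorticoid receptor (CLEC12A) and the member with letters of interferon factors (CD274). They are RefSeq sequences of GRCh38.p14, from 250 bases before to 50 bases after the annotated start, all on the plus strand, and capitals mark matches to the searched letters:
CD86 upstream start, chr3:122055112-122055411: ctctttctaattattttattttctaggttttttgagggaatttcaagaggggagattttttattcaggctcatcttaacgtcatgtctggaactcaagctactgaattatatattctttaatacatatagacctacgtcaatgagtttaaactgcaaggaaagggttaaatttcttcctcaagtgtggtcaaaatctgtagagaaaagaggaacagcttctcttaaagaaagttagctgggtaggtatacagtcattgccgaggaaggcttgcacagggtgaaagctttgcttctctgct
CD86 downstream start, chr3:122077534-122077833: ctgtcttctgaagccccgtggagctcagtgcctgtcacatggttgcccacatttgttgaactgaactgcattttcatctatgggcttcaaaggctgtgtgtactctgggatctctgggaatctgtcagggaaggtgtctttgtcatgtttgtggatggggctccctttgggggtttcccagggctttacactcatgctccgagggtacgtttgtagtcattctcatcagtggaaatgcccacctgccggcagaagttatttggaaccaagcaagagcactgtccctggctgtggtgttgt
CLEC12A, chr12:9971159-9971458: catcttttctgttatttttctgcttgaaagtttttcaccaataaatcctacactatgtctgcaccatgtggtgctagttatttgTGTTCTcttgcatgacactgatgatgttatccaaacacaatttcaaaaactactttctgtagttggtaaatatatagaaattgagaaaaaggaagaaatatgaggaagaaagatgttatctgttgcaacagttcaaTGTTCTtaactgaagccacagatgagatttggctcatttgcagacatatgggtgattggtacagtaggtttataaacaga
CD274, chr9:5450292-5450591: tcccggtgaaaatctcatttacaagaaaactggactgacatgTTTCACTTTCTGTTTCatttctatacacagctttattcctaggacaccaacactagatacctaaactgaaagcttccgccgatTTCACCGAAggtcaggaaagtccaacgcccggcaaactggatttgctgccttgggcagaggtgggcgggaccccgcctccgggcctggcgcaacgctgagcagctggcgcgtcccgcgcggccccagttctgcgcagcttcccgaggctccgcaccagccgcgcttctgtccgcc
The letters searched on both strands were AGAACA for the glucocorticoid receptor, TTCNNNGAA for STAT factors, GTAAACA for FOXO factors, GAGGAAGT for PU.1 and 2 copies of GAAA spaced by 2 bases for interferon regulatory factors. Of 35116 promoter windows in the table, 14.8%, 7.66%, 3.42%, 2.59% and 3.57% hold them, in that order. A window was given for 7 members, 8 windows in all, which include CD33, CD47, CD38 and LILRB4 but not SIRPA, CD93 or HAVCR2. CLEC12A held AGAACA at positions -166 and -30 from the start, both on the reverse strand. CD274 held the STAT letters at -125 and the interferon factor letters at -208 and -202, which overlap each other. The other 6 windows, both of CD86 among them, held none of these letters, which says nothing of binding elsewhere.

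Counts of members called are set beside the share of all 16430 genes called the same way, at an adjusted p under 0.05 in edgeR's quasi-likelihood test. Quizartinib at 48 h changed 5 of 9 measured members, all upward (CD33, LILRB4, HAVCR2, CD86 and CD47), where 59.4% of all genes were called and 29% were called higher. In quizartinib for 5 days against the DMSO cells of 48 h, 5 were called (62.8% of all genes, 30.7% higher and 32.1% lower). CD33, LILRB4, HAVCR2 and CD86 were higher there and CD38 was lower. The combination against DMSO at 48 h also changed 5, with CD33, LILRB4, HAVCR2 and CD86 higher and SIRPA lower (63.1%, 31.3% higher and 31.8% lower). These 3 comparisons share their DMSO libraries, and their counts are near or under the background for calls in either direction. The counts of higher members (5, 4 and 4 of 9) are above the shares called higher. However, CD33, LILRB4, HAVCR2 and CD86 recur in all 3, and the members were chosen with earlier results of these data known. The difference from the shares is therefore a description only. Dexamethasone alone changed 3 members, with CD93 higher and CD86 and LILRB4 lower, where 12.1% of all genes were called, 5.5% higher and 6.63% lower.

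Dexamethasone on top of quizartinib lowered CD47 at 48 h, 1 of 9 members against 10.3% of all genes called and 4.63% called lower, and lowered CD86 at 5 days, 1 of 9 members against 8.64% called and 4.04% called lower. No member was called in edgeR's interaction of the drugs (2.23% of all genes), where 1 member passed an unadjusted p under 0.05 and DESeq2 called 0. None was called between quizartinib at 5 days and at 48 h (3.16%), where 3 passed unadjusted and DESeq2 called 1. None was called in the difference between the late and the early effect of dexamethasone (0.0487%), where 1 passed unadjusted and DESeq2 called 0. The plot of log2 fold changes shows these calls.

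**Figure D1:**
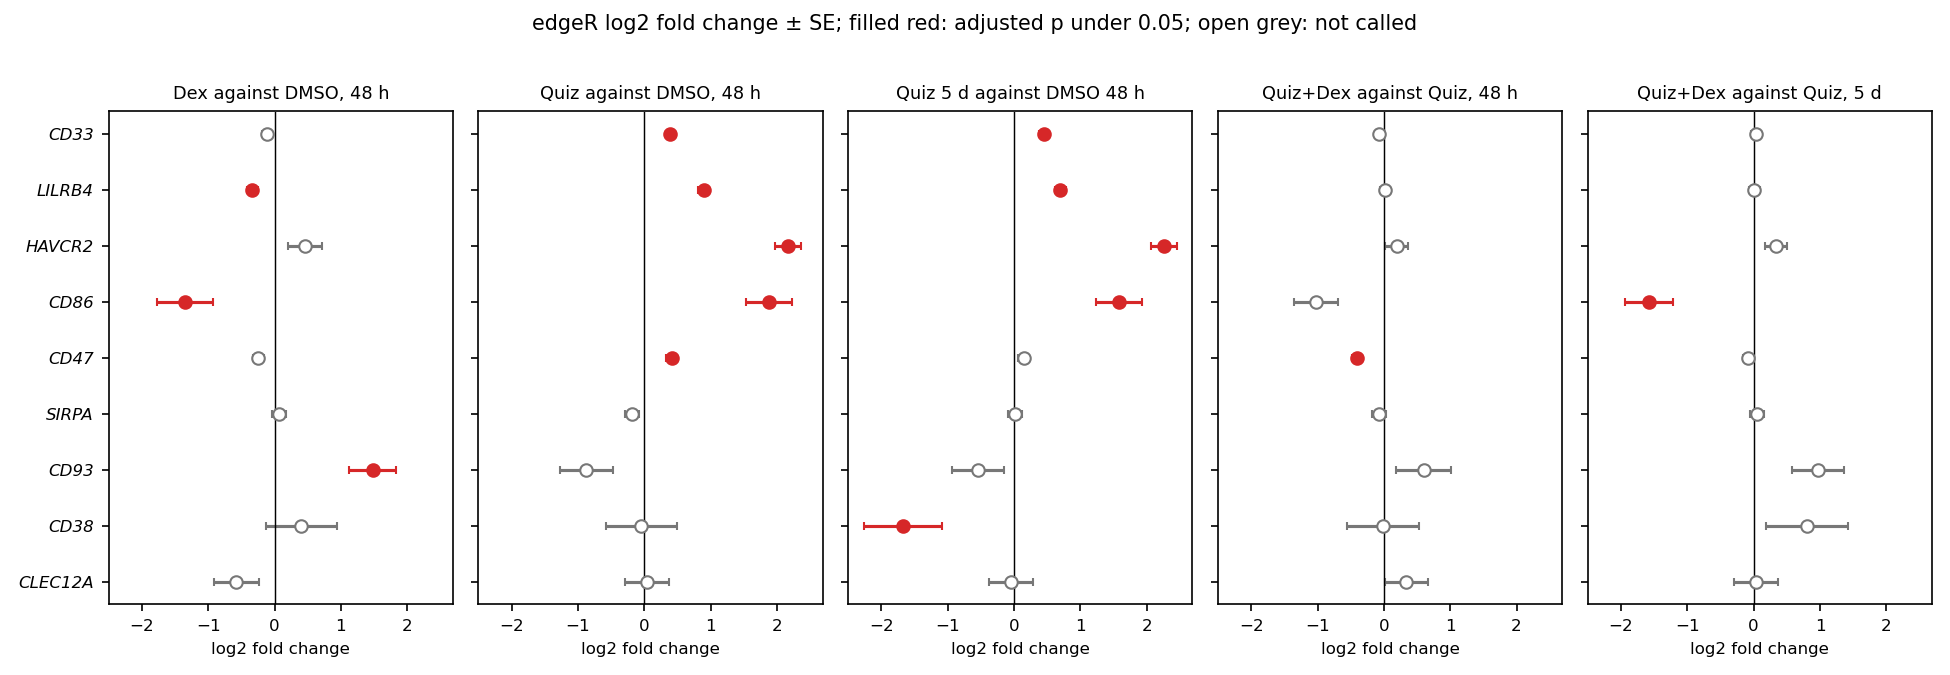
Log2 fold changes of the 9 members in the count tables in 5 comparisons, as points with their standard error, filled red where edgeR's adjusted p was under 0.05. The 2 quizartinib panels share the DMSO libraries; CD93 is the only filled point above 0 under dexamethasone alone, and CD47 and CD86 are the filled points in the panels with dexamethasone on top of quizartinib.

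CD33 (chromosome 19, 51225064 to 51243860, plus strand, GENCODE 29 on GRCh38) encodes a sialic acid-binding receptor and is the target of gemtuzumab ozogamicin. Its replicates stood at 83.5, 74.8 and 71.8 CPM in DMSO, at 67.9, 69.6 and 73.9 CPM with dexamethasone, and at 106, 97.5 and 97.7 CPM with quizartinib at 48 h. They were at 97.3, 95.7 and 93.7 CPM with the combination at 48 h, at 102, 105 and 106 CPM with quizartinib for 5 days, and at 104, 108 and 108 CPM with the combination for 5 days. Every library with quizartinib was above every library without it, and the DMSO and dexamethasone groups overlapped. Quizartinib raised CD33 1.31-fold at 48 h (log2 fold change 0.39 ± 0.07, edgeR adjusted p = 9.28e-05). After 5 days of quizartinib CD33 was 1.36-fold above DMSO of 48 h (0.44 ± 0.07, edgeR adjusted p = 2.10e-05). The 48 h combination was 1.25-fold above DMSO (0.32 ± 0.07, adjusted p = 5.86e-04). Dexamethasone on top of quizartinib left CD33 uncalled at 48 h (adjusted p = 0.623) and at 5 days (adjusted p = 0.875).

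CLEC12A (chromosome 12, 9951316 to 9995694, plus strand), a C-type lectin receptor also pursued as a leukaemia antigen, was called in no drug comparison. It ranged from 4.29 to 6.72 CPM in DMSO, 1.26 to 4.94 CPM with dexamethasone, 4.66 to 6.00 CPM with quizartinib and 5.43 to 7.47 CPM with the combination at 48 h. At 5 days it ranged from 4.35 to 5.87 CPM with quizartinib and from 4.19 to 6.51 CPM with the combination. The ranges overlapped in every comparison with DMSO, and the lowest library was replicate 3 of dexamethasone, at 28 counts. The smallest edgeR adjusted p of CLEC12A against DMSO was 0.318, for the combination.

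CD38 (chromosome 4, 15778275 to 15853230, plus strand), an ectoenzyme that consumes NAD and the target of daratumumab, varied more within the DMSO and dexamethasone groups than any drug moved it at 48 h. Its replicates were at 7.03, 1.36 and 12.7 CPM in DMSO and at 4.20, 6.11 and 17.5 CPM with dexamethasone. With quizartinib they were at 6.78, 6.60 and 7.09 CPM at 48 h and at 1.86, 1.61 and 3.12 CPM at 5 days. With the combination they were at 7.56, 7.93 and 4.78 CPM at 48 h and at 4.15, 3.80 and 3.62 CPM at 5 days. The DMSO and dexamethasone groups were spread widely, the quizartinib groups were narrower, and the 5-day quizartinib group overlapped DMSO through DMSO replicate 2. Quizartinib for 5 days was called lower than DMSO (log2 fold change -1.68 ± 0.59, edgeR adjusted p = 0.0204). Without DMSO replicate 3 the log2 fold change was -0.93 and the call was lost (adjusted p = 0.179), and it was also lost without quizartinib replicate 1 (0.0613) or 2 (0.0717) of 5 days. The level at 5 days lay below all 3 quizartinib libraries of 48 h, but that difference was not called (-1.63 ± 0.59, adjusted p = 0.156).

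LILRB4 (chromosome 19, 54643889 to 54670359, plus strand), which belongs to a family of closely related leukocyte receptors whose shared reads can be split in counting, is an inhibitory receptor of monocytic leukaemia cells. Its replicates were at 132, 108 and 126 CPM in DMSO and at 88.4, 96.3 and 104 CPM with dexamethasone. With quizartinib they were at 226, 222 and 233 CPM at 48 h and were at 207, 192 and 194 CPM at 5 days. With the combination they were at 248, 228 and 213 CPM at 48 h and at 200.04, 197 and 200.4 CPM at 5 days. All 12 quizartinib libraries stood above the 6 others, and the dexamethasone group lay below DMSO without overlap. Quizartinib raised LILRB4 1.86-fold at 48 h (log2 fold change 0.90 ± 0.08, edgeR adjusted p = 6.63e-08). After 5 days of quizartinib LILRB4 was 1.62-fold above DMSO of 48 h (0.70 ± 0.08, edgeR adjusted p = 1.15e-06). The combination raised it 1.89-fold at 48 h (0.91 ± 0.08, adjusted p = 4.39e-08).

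Dexamethasone alone lowered LILRB4 by a small amount (log2 fold change -0.34 ± 0.08, edgeR adjusted p = 0.0111). That call was lost without DMSO replicate 1 (adjusted p = 0.0604) or dexamethasone replicate 1 (0.0507). With quizartinib present, the dexamethasone comparison was not called at 48 h (229.6 ± 17.2 against 227 ± 5.29 CPM, SD, n = 3 each, adjusted p = 0.946) and at 5 days (199 ± 1.83 against 198 ± 7.97 CPM, adjusted p = 0.972). The difference between its effects with and without quizartinib was 0.36 ± 0.12 on the log2 scale and was not called (adjusted p = 0.142), with all other members at a higher adjusted p in this test.

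HAVCR2 (chromosome 5, 157085832 to 157142869, minus strand) had the largest log2 fold change of the members under quizartinib at 48 h and at 5 days. Its replicates were at 0.731, 0.863 and 0.699 CPM in DMSO and at 0.962, 1.21 and 0.992 CPM with dexamethasone. They were at 2.77, 3.48 and 4.09 CPM with quizartinib at 48 h and at 3.44, 3.64 and 3.96 CPM at 5 days. With the combination they were at 3.86, 4.01 and 3.96 CPM at 48 h and at 4.53, 4.56 and 4.90 CPM at 5 days. No quizartinib library came near the 6 others, and every library of the gene held between 16 and 103 counts. Quizartinib raised HAVCR2 4.49-fold at 48 h (log2 fold change 2.17 ± 0.19, edgeR adjusted p = 4.03e-08), and the 48 h combination raised it 5.13-fold (2.36 ± 0.19, adjusted p = 1.08e-08). After 5 days of quizartinib HAVCR2 was 4.80-fold above DMSO of 48 h (2.26 ± 0.19, edgeR adjusted p = 2.09e-08). Dexamethasone was not called on top of quizartinib at 5 days, although all 3 libraries were above the quizartinib libraries (log2 fold change 0.34 ± 0.17, adjusted p = 0.260). MED7, a Mediator subunit, overlaps HAVCR2 on the same strand, so reads could be shared, and it stood at 7.03 ± 1.04 CPM in DMSO and 8.43 ± 0.24 CPM with quizartinib at 48 h (SD, n = 3 each, log2 fold change 0.26 ± 0.16, adjusted p = 0.166). MED7 was called higher against DMSO in the 48 h combination (0.43 ± 0.16, edgeR adjusted p = 0.0240) and after 5 days of quizartinib (0.38 ± 0.16, adjusted p = 0.0435).

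**Figure D2:**
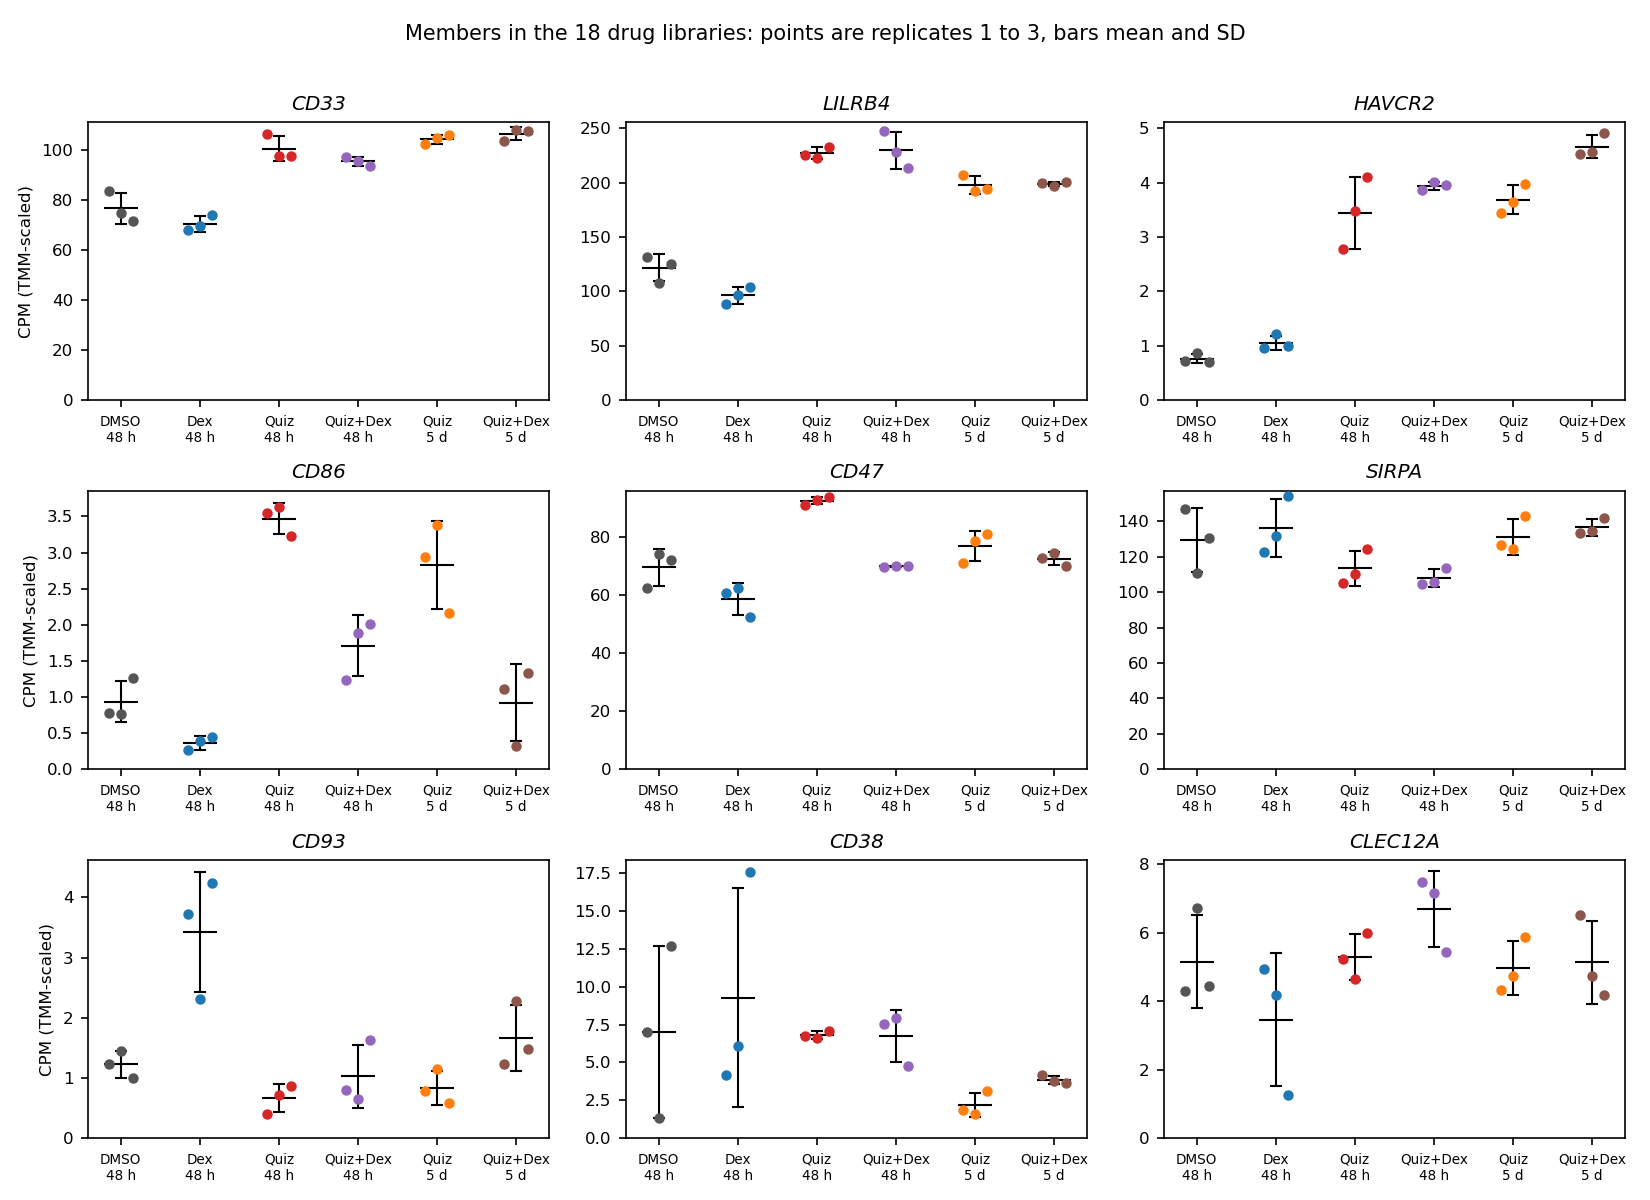
CPM of each of the 9 members in the count tables by group, with points for replicates 1 to 3, a dash for the mean and a bar for the SD, on linear axes from 0. CD33, LILRB4 and HAVCR2 stand higher in all 4 groups with quizartinib, CD86 stands highest in the 2 groups with quizartinib alone, CD47 in quizartinib at 48 h and CD93 in dexamethasone alone.

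CD47 (chromosome 3, 108043094 to 108091862, minus strand) gives phagocytes the signal that magrolimab was made to block. The 3 DMSO libraries were at 62.2, 74.1 and 72.0 CPM and the dexamethasone libraries at 60.7, 62.5 and 52.3 CPM. With quizartinib they were at 91.0, 92.5 and 93.5 CPM at 48 h, and with the combination at 69.5, 69.97 and 69.9 CPM. At 5 days they were at 70.9, 78.3 and 80.9 CPM with quizartinib and at 72.8, 74.5 and 70.03 CPM with the combination. The quizartinib group of 48 h lay above every other library, and the 48 h combination lay within the DMSO range. Quizartinib raised CD47 1.33-fold at 48 h (log2 fold change 0.41 ± 0.08, edgeR adjusted p = 2.79e-04), and dexamethasone on top of it lowered CD47 at 48 h (-0.40 ± 0.08, adjusted p = 0.00266). The combination was not called against DMSO (adjusted p = 0.940).

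The rise was not called after 5 days of quizartinib (log2 fold change 0.14 ± 0.08 against DMSO, edgeR adjusted p = 0.126), nor was the step down from 48 h (-0.27 ± 0.08, adjusted p = 0.0799). Dexamethasone added late left CD47 uncalled (adjusted p = 0.635). The late and early effects of dexamethasone differed by 0.32 ± 0.11 on the log2 scale (unadjusted p = 0.0118 in edgeR, adjusted p = 1.00). Dexamethasone alone gave a log2 fold change of -0.25 ± 0.08 that missed the threshold (adjusted p = 0.0541), passed it without DMSO replicate 1 (0.0170) or dexamethasone replicate 2 (0.0439), and missed it without any 1 of the 4 other libraries.

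SIRPA (chromosome 20, 1894167 to 1940592, plus strand), the receptor of CD47, was the flattest member, with a highest library 1.47 times its lowest. Its replicates were at 147, 111 and 131 CPM in DMSO, at 123, 132 and 155 CPM with dexamethasone, at 105, 110.3 and 124 CPM with quizartinib and at 105, 106 and 114 CPM with the combination at 48 h. At 5 days they were at 127, 124 and 143 CPM with quizartinib and at 133, 134 and 142 CPM with the combination. The groups overlapped in each comparison, with only the combination at 48 h called against DMSO (log2 fold change -0.26 ± 0.10, edgeR adjusted p = 0.0377). This call was lost without DMSO replicate 1 (adjusted p = 0.204) or 3 (0.0708) and without combination replicate 1 (0.0843) or 2 (0.0808). Quizartinib at 48 h gave -0.19 ± 0.10 (adjusted p = 0.122), which passed the threshold without DMSO replicate 2 (-0.29, 0.0260) and shrank to -0.09 without DMSO replicate 1 (0.481).

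SIRPB1, an activating relative of SIRPA with similar sequence, so that counts between them are uncertain, was at 20.5 ± 1.37 CPM in DMSO and 10.35 ± 3.20 CPM with quizartinib at 48 h (SD, n = 3 each). Its replicates with quizartinib were at 7.44, 9.83 and 13.8 CPM, all below DMSO, and it fell (log2 fold change -0.98 ± 0.24, edgeR adjusted p = 0.00219). The antisense gene AL117335.1 overlaps SIRPA and was at 1.53 ± 0.44 CPM in DMSO (SD, n = 3). The library kit was directional per the labels, but how strand was counted is not given in the sources used here.

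CD86 (chromosome 3, 122055366 to 122121139, plus strand) was higher with quizartinib and lower with dexamethasone, at low levels of 5 to 71 counts per library. The DMSO replicates were at 0.776, 0.772 and 1.27 CPM and the dexamethasone replicates at 0.262, 0.385 and 0.451 CPM. With quizartinib they were at 3.54, 3.63 and 3.23 CPM at 48 h and at 2.93, 3.38 and 2.17 CPM at 5 days. With the combination they were at 1.23, 1.89 and 2.01 CPM at 48 h and at 1.12, 0.316 and 1.33 CPM at 5 days. Every library with quizartinib alone lay above all others, the dexamethasone group lay below DMSO without overlap, and both combination groups overlapped DMSO. Quizartinib raised CD86 3.67-fold at 48 h (log2 fold change 1.88 ± 0.35, edgeR adjusted p = 1.75e-04). After 5 days of quizartinib CD86 was 3.00-fold above DMSO of 48 h (1.58 ± 0.35, edgeR adjusted p = 8.17e-04).

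The log2 fold change of CD86 with dexamethasone was below 0 in each setting, with calls in 2 of 3. On top of 5 days of quizartinib it lowered CD86 2.99-fold (log2 fold change -1.58 ± 0.36, edgeR adjusted p = 0.00912), and the 2 groups did not overlap. On top of quizartinib at 48 h the log2 fold change was -1.02 ± 0.33, also without overlap, and missed the threshold (adjusted p = 0.0593), while DESeq2 called it (0.0274). Against DMSO alone it was -1.35 ± 0.43 (adjusted p = 0.0476), and this call was lost with any 1 of the 6 libraries left out (adjusted p from 0.0578 to 0.150) and with RLE scaling (0.0511). The combination at 48 h still stood 1.81-fold above DMSO (log2 fold change 0.85 ± 0.36, adjusted p = 0.0464), a call lost without DMSO replicate 1 (0.133) or 2 (0.135) and without combination replicate 2 (0.123) or 3 (0.126). The difference between dexamethasone's effects with and without quizartinib was not called by edgeR (adjusted p = 0.851), nor was that between its late and early effects (adjusted p = 1.00). ITGA2B, the 1 erythroid and megakaryocyte marker of 4 with a row, was also called lower with dexamethasone and higher with quizartinib at 48 h, at 2.15 to 3.10 CPM in DMSO, 0.935 to 1.40 CPM with dexamethasone and 4.00 to 4.98 CPM with quizartinib. Its part in the CD86 result was not tested.

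CD93 (chromosome 20, 23079349 to 23086340, minus strand), a C-type lectin-like receptor of myeloid and endothelial cells that marks leukaemic stem cells, was the member that rose with dexamethasone. Its replicates were at 1.23, 1.45 and 1.00 CPM in DMSO and at 3.72, 2.31 and 4.24 CPM with dexamethasone. With quizartinib they were at 0.411, 0.717 and 0.864 CPM at 48 h and at 0.790, 1.15 and 0.582 CPM at 5 days. With the combination they were at 0.807, 0.661 and 1.63 CPM at 48 h and at 1.24, 2.28 and 1.47 CPM at 5 days. The dexamethasone libraries were the highest 3 of all 18, and the quizartinib group of 48 h lay below DMSO. Dexamethasone alone raised CD93 2.79-fold (log2 fold change 1.48 ± 0.35, edgeR adjusted p = 0.00994), a call kept with each library left out in turn (adjusted p from 0.00669 to 0.0372). Quizartinib at 48 h gave -0.87 ± 0.40 and was not called (adjusted p = 0.0695), and dexamethasone on top of 5 days of quizartinib gave 0.98 ± 0.39 (adjusted p = 0.152) with groups that did not overlap. CD93 is also an endothelial gene, and VWF, the 1 endothelial marker of 3 with a row, was at 0.274, 0.318 and 0.786 CPM in DMSO and at 0.918, 0.330 and 2.16 CPM with dexamethasone (log2 fold change 1.31 ± 0.57, adjusted p = 0.162). Its part in the CD93 result was not tested.

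The recovery experiment gave single calls at most, with limma on log2(FPKM + 1) at an adjusted p under 0.05. Survivors of 48 h in 100 nM quizartinib differed from untreated cells in 1 of 8 tested members, LILRB4, which rose, against 14.5% of 18098 genes called and 8.14% called higher. The other 4 comparisons called 0 of 8 members by limma: 13 days against untreated (0.381% of all genes, 2 members past an unadjusted p under 0.05), 30 days against untreated (0.127%, 0 past), 13 days against survivors (0.845%, 2 past) and 30 days against 13 days (0.403%, 2 past). CD93 and CD274 did not reach 1 FPKM in 2 libraries and were not tested. Across all genes the median log2 fold change was 0.18 in survivors against untreated cells and -0.18 at 13 days against survivors, so the member values stand beside that shift.

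LILRB4 was carried almost wholly by 1 of its 5 entries, which lies on an alternate sequence of chromosome 19 (ENSG00000275730), while the entry on chromosome 19 itself stayed at or below 0.408 FPKM. The large entry was at 3.62 and 2.94 FPKM in untreated cells, 10.1 and 11.2 in survivors, 4.18 and 4.30 at 13 days and 3.16 and 5.86 at 30 days. Both survivor libraries were above all others, and the values at 13 and 30 days were nearer the untreated ones (13 days against survivors, log2 fold change -1.15 ± 0.30, limma adjusted p = 0.102). The log2 fold change of survivors was 1.45 ± 0.30 (limma adjusted p = 0.0324), and the call was lost with any 1 of the 4 libraries left out (adjusted p from 0.118 to 0.174).

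CD86 and HAVCR2 were also high in survivors, in both libraries. CD86 was at 0.486 and 0.591 FPKM in untreated cells and at 7.99 and 6.11 in survivors (log2 fold change 2.38 ± 0.64, limma adjusted p = 0.0554). HAVCR2 was at 0.508 and 0.644 FPKM in untreated cells and at 2.35 and 2.61 in survivors (1.14 ± 0.43, adjusted p = 0.113). With a pseudocount of 0.1 in place of 1 the log2 fold change of HAVCR2 was 1.94 (limma adjusted p = 0.132). Fitting the compared groups only called both CD86 (limma adjusted p = 0.0104) and HAVCR2 (0.0299), while 9 of 10 alternatives left each uncalled. After drug removal the replicates parted: CD86 was at 0.532 and 3.84 FPKM at 13 days and at 0.783 and 3.45 at 30 days, and HAVCR2 at 0.407 and 2.17 and then at 1.16 and 2.08. In each of these 4 pairs replicate 2 was higher, and replicate 1 was near the untreated level except HAVCR2 at 30 days.

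CD33 and SIRPA were highest at 13 days. CD33 was at 143 and 147 FPKM in survivors, 157 and 178 at 13 days and 129.6 and 91.8 at 30 days. SIRPA was at 30.8 and 21.8 FPKM in survivors, 46.9 and 47.3 at 13 days and 30.5 and 29.1 at 30 days. For both, the 13-day libraries lay above all 6 others, without a call (13 days against untreated, limma log2 fold change 0.54 ± 0.20 and adjusted p = 0.180 for CD33, and 0.62 ± 0.21 and adjusted p = 0.171 for SIRPA). CD47 stayed between 27.1 and 51.6 FPKM in all 8 libraries, with the lowest and the highest value both at 13 days.

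CLEC12A, CD38 and CD93 had replicates that lay far apart within groups. CLEC12A was at 1.64 and 11.0 FPKM in survivors and at 11.9 and 21.5 at 13 days, with the untreated pair between. CD38 was at 12.0 and 4.36 FPKM in survivors, 3.81 and 1.45 at 13 days and 2.51 and 1.01 at 30 days, with replicate 1 higher each time. CD93 was at 0.113 and 0.405 FPKM in survivors, 0.186 and 0.818 at 13 days and 0.130 and 0.733 at 30 days, with replicate 2 higher each time. Neither CLEC12A nor CD38 was called, and the groups of each overlapped the untreated pair.

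CD274 (chromosome 9, 5450503 to 5470566, plus strand) stayed below 0.5 FPKM throughout. It was at 0.454 and 0.0434 FPKM in survivors, 0.0467 and 0.177 at 13 days and 0.306 and 0.280 at 30 days, against 0.0213 and 0.0247 in untreated cells. All 6 libraries after drug were above both untreated libraries, but levels this low rest on few fragments and the depth behind them is not known. PDCD1LG2, the neighbouring second PD-1 ligand, was listed at 0 in 5 of the 8 libraries and at most at 0.0840 FPKM.

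**Figure D3:**
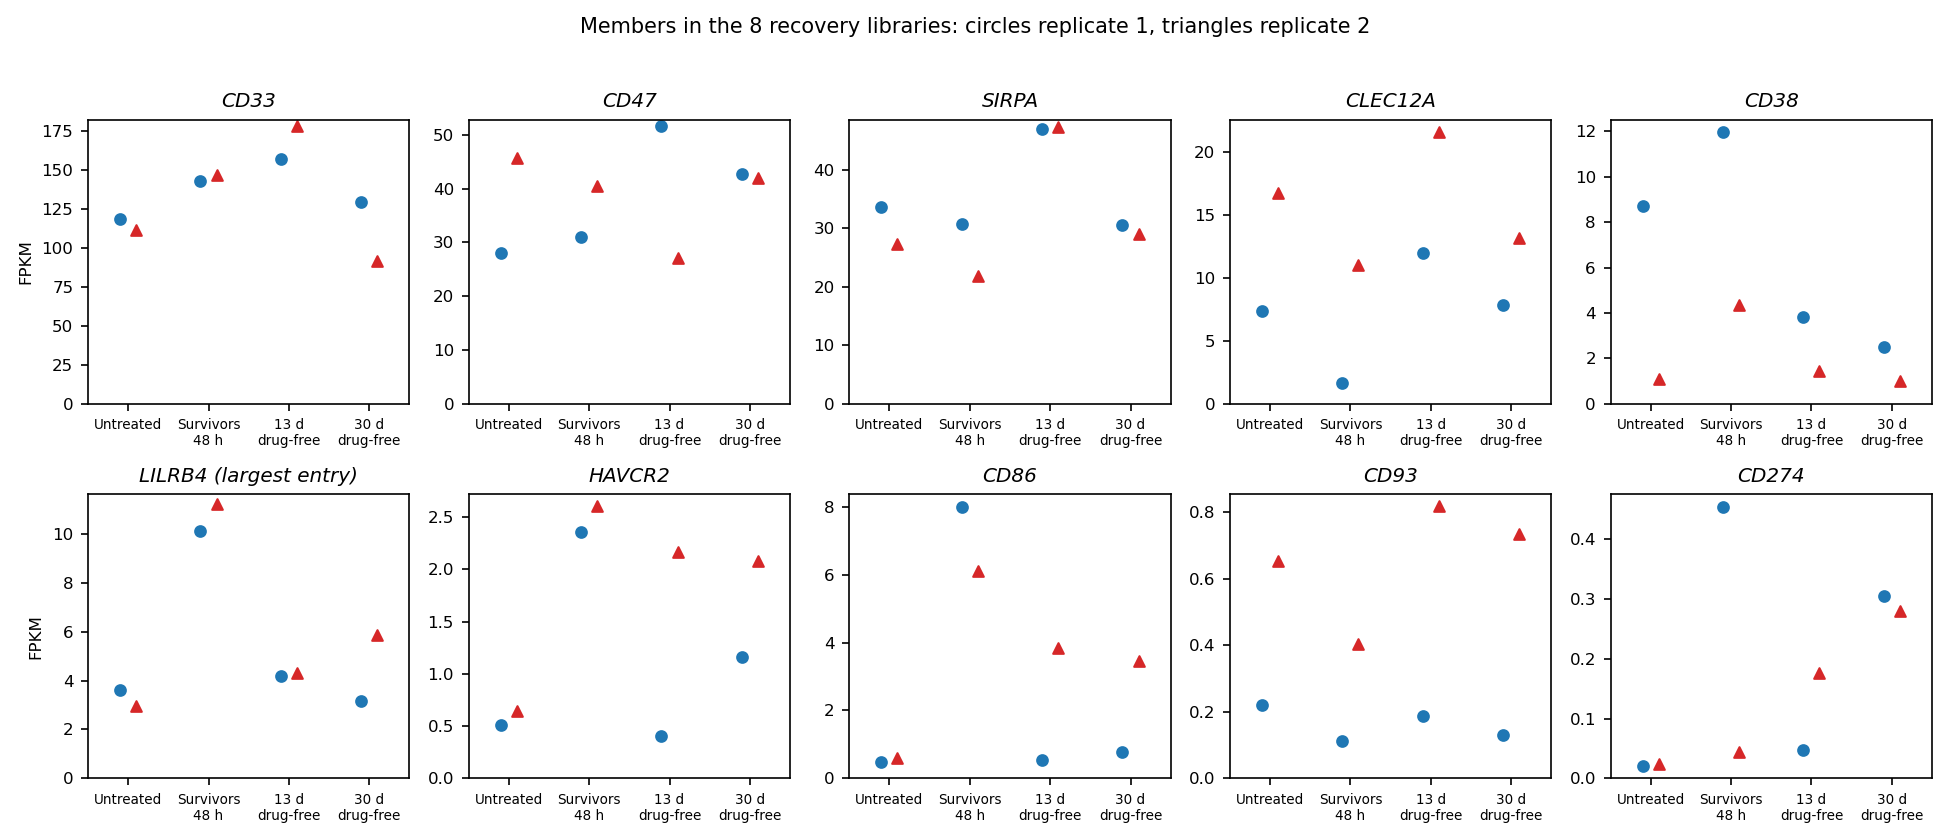
FPKM of all 10 members in the recovery experiment, with circles for replicate 1 and triangles for replicate 2 of each group, on linear axes from 0 that differ between panels. LILRB4, HAVCR2 and CD86 are high in both survivor libraries, CD33 and SIRPA at 13 days, and the CLEC12A, CD38 and CD93 pairs lie far apart in each group.

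Direct partners of these proteins were measured from a list of 15 ligands, partners and handling factors, 12 of which had counts. Of the 12, 3 rose and 6 fell with quizartinib at 48 h, where 59.4% of all genes were called. Their median log2 fold change was -0.42 beside 0.02 over all genes. With dexamethasone 2 rose and 1 fell, where 12.1% of all genes were called (-0.07 beside -0.02). LGALS9, galectin-9, a ligand of HAVCR2, was at 204, 173 and 158 CPM in DMSO, 147, 152 and 124 CPM with dexamethasone and 119, 114 and 119 CPM with quizartinib at 48 h. Its 48 h combination was at 91.7, 88.02 and 88.3 CPM, and at 5 days it was at 76.1, 70.8 and 68.9 CPM with quizartinib and 60.3, 50.9 and 56.2 CPM with the combination. It went down in each step, and no pair of groups compared overlapped. It fell with quizartinib at 48 h (log2 fold change -0.60 ± 0.10, edgeR adjusted p = 3.57e-05) and further from 48 h to 5 days (-0.71 ± 0.10, adjusted p = 7.22e-04), and also with dexamethasone alone (-0.34 ± 0.10, adjusted p = 0.0259) and on top of quizartinib at 48 h (-0.40 ± 0.10, adjusted p = 0.0116).

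CD80, which shares CD28 and CTLA4 with CD86, was at 0.137, 0.045 and 0 CPM in DMSO and at 0.308, 0.358 and 0.50 CPM with quizartinib at 48 h. It rose by edgeR (adjusted p = 0.00592), at levels of a few counts per library in DMSO. THBS1, a secreted ligand of CD47, was at 0.548, 0.454 and 0.480 CPM in DMSO and at 130.4, 138 and 579 CPM with dexamethasone, where replicate 3 stood far above the others. It rose with dexamethasone (log2 fold change 9.14 ± 0.69, adjusted p = 1.00e-07) and was at 5.27, 4.54 and 10.9 CPM with the 48 h combination against 0.051, 0.205 and 0.318 CPM with quizartinib. CMTM6, which protects CD274 from breakdown, fell slightly with quizartinib at 48 h (-0.23 ± 0.09, adjusted p = 0.0277).

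**Figure D4:**
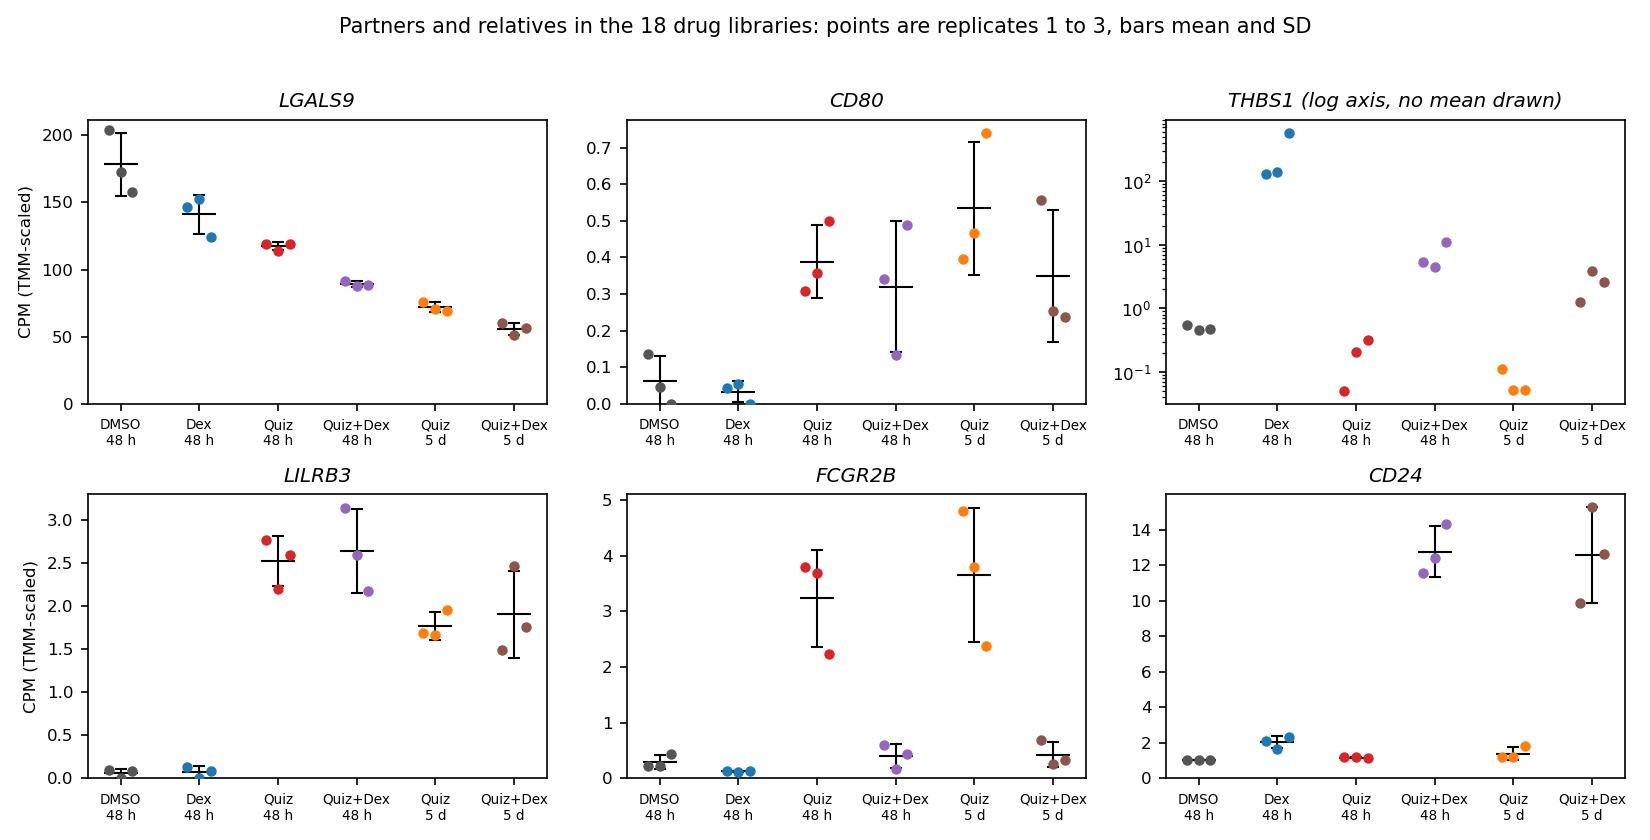
CPM of 3 direct partners (LGALS9, CD80, THBS1) and 3 relatives or further checkpoint genes (LILRB3, FCGR2B, CD24) by group, with points for replicates 1 to 3 and a dash and bar for mean and SD, except THBS1, drawn as points on a log axis. LGALS9 steps down from DMSO to the 5-day combination, LILRB3 is near 0 without quizartinib, FCGR2B is highest in the groups with quizartinib alone, and CD24 is high in the 2 combination groups.

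Of 16 further inhibitory myeloid receptors and close paralogues, all with counts, 10 rose and 1 fell with quizartinib at 48 h. Of all genes, 59.4% were called there and 29% were called higher. The median log2 fold change of the list was 1.15 beside 0.02 over all genes. LILRB3, a paralogue of LILRB4, was at 0.091, 0 and 0.087 CPM in DMSO and at 2.77, 2.20 and 2.59 CPM with quizartinib (edgeR adjusted p = 6.93e-08). FCGR2B, an inhibitory Fc receptor, was at 0.228, 0.227 and 0.437 CPM in DMSO and at 3.80, 3.69 and 2.23 CPM with quizartinib (log2 fold change 3.41 ± 0.43, adjusted p = 2.56e-06). Dexamethasone on top of quizartinib called 0 of the 16 higher and 2 lower at 48 h, where 10.3% of all genes were called and 4.63% were called lower. The 2 were FCGR2B (-2.99 ± 0.41, adjusted p = 9.36e-05) and LILRB1 (-0.51 ± 0.11, adjusted p = 0.00599). FCGR2B was at 0.594, 0.176 and 0.434 CPM with the 48 h combination, overlapping DMSO.

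Of 13 further checkpoint and costimulatory genes with counts, out of 17, 5 rose and 3 fell with quizartinib at 48 h, a share near the 59.4% of all genes called. CD276 (B7-H3) went from 22.7 ± 1.82 to 4.07 ± 0.86 CPM (SD, n = 3 each, log2 fold change -2.47 ± 0.17, edgeR adjusted p = 1.62e-09), and VSIR (VISTA) rose (1.39 ± 0.23, adjusted p = 6.30e-05). With dexamethasone on top of quizartinib at 48 h 3 rose and 1 fell, where 10.3% of all genes were called. CD24, a ligand of SIGLEC10 and an anti-phagocytic signal like CD47, rose from 1.18, 1.18 and 1.14 CPM to 11.5, 12.4 and 14.3 CPM (3.44 ± 0.21, adjusted p = 8.62e-09). CD47 was called lower in that comparison. At 5 days dexamethasone on top of quizartinib also called CD24 higher, while CD47 was not called (edgeR adjusted p = 0.635). CD24 was at 2.10, 1.65 and 2.35 CPM with dexamethasone alone, and its interaction of the drugs was called (2.47 ± 0.30, adjusted p = 3.22e-04).

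Of 18 other leukaemia surface antigens with counts, out of 21, 8 rose and 3 fell with quizartinib at 48 h, also near the 59.4% of all genes, with CD7 (log2 fold change 3.17 ± 0.43) and KIT (2.58 ± 0.29) the highest and IL2RA the lowest (-3.38 ± 0.44). Dexamethasone alone raised 4 of them and lowered 3, where 5.5% of all genes were called higher and 6.63% lower. Among them were ANPEP (CD13, 2.14 ± 0.34) and IL2RA (1.76 ± 0.30) higher and SIGLEC6 lower (-1.64 ± 0.47). Of 7 phosphatases and adaptors that inhibitory receptors recruit, 1 rose and 4 fell with quizartinib at 48 h, beside 59.4% of all genes called. PTPN11 (-0.98 ± 0.09) and PTPN6 (-0.60 ± 0.08) were lower while LILRB4 was higher. Of 6 genes on the interferon gamma route to CD274, 2 rose (JAK2, 0.92 ± 0.10, and JAK1, 0.52 ± 0.07) and 1 fell (IFNGR2, -0.70 ± 0.20) with quizartinib at 48 h, beside the same 59.4%. Of 3 NAD and adenosine ectoenzymes and receptors with counts, out of 7, 1 fell (ADORA2B) with quizartinib at 48 h, again beside 59.4%. BST1, a relative of CD38, fell with dexamethasone on top of quizartinib at 48 h (-1.17 ± 0.23, edgeR adjusted p = 0.00212).

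In survivors, the same lists held 9 genes called higher and 4 called lower by limma out of 64 tested, where 14.5% of all genes were called and 8.14% were called higher. CD276 was at 31.5 and 19.95 FPKM in untreated cells and at 5.13 and 5.80 in survivors (log2 fold change -2.02 ± 0.40, adjusted p = 0.0307). CD300LF, an inhibitory myeloid receptor, was at 16.0 and 15.4 FPKM in untreated cells and at 70.8 and 45.8 in survivors (1.79 ± 0.27, adjusted p = 0.0235). PECAM1 (2.99 ± 0.69, adjusted p = 0.0396) and CD37 (2.39 ± 0.31, adjusted p = 0.0193) were higher too. None of the 64 was called in the other 4 comparisons.

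Likeness of pattern was measured as Pearson's r of log2(CPM + 0.5) over the 18 drug libraries among 13567 genes with a mean of at least 1 CPM, as a description, since the libraries share the drug groups. Among the genes closest to HAVCR2 was BMPR2 (0.984), and among those closest to LILRB4 were ARSD (0.982) and AP1G2 (0.981). The closest to CD33 was CHD6 (0.978), to CD86 NCKAP5L (0.928), to CD47 LDHD (0.927) and to CD93 CHD7 (0.917). SIRPA came closest to PEX19 (0.888), CLEC12A to LRMP (0.862) and CD38 to SYTL1 (0.834). Among the members, CD33, LILRB4 and HAVCR2 went together (0.910 for CD33 with LILRB4, 0.906 for CD33 with HAVCR2 and 0.890 for LILRB4 with HAVCR2), and CD86 and CD93 ran opposite (-0.812).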

How the data were processed

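RNA from 26 MV4-11 libraries was sequenced from directional libraries, per the labels' protocols. For the 18 drug libraries the authors deposited read counts per gene, and the submitters' processing notes name CASAVA, STAR 2.7.3, RSEM, edgeR, DESeq2 and GRCh38. For the 8 recovery libraries the authors deposited FPKM values, and the notes name CASAVA, TopHat2 2.0.9, Cuffdiff and hg38. Depth behind the FPKM values is not known, and counting by strand is not given in the sources used here.

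Counts were tested with edgeR 4.0.16 (quasi-likelihood, TMM scaling, filterByExpr, all 18 libraries in 1 fit), and log2(FPKM + 1) with limma 3.58.1 (trend) over entries of at least 1 FPKM in at least 2 libraries, in R 4.3.3. The p-values were adjusted by Benjamini-Hochberg over all genes tested, with calls at an adjusted p under 0.05. Errors are standard errors for log2 fold changes and SD for levels. CPM values were scaled to the TMM-adjusted library size and computed from the deposited counts. DESeq2 1.42.0 and other scalings, filters, library sets and a replicate block were alternatives. The fits were tested on simulated data. No log2 fold change is printed for a member where the unadjusted p of the main fit was 0.1 or more. Values from fits with a library left out were not held to this rule.

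The members and gene lists were chosen with earlier results of these data known. Named from each list were at most the 3 called genes with the largest absolute change, plus direct partners. Up to 3 genes most like a member in pattern were named, and some of these are not reported here. VWF, MED7 and AL117335.1 were named after their values were seen. The log2(FPKM + 1) scale understates changes of low genes.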

Additional observations from a re-analysis of the deposited data

How the results depend on the processing

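Fitting the compared groups only moved the members called with dexamethasone from 3 to 1, with quizartinib for 5 days against 48 h from 0 to 1, with the combination against quizartinib from 1 to 2 at 48 h and from 1 to 2 at 5 days, and in survivors from 1 to 3. DESeq2, and leaving out the libraries numbered 3, each gave 2 members for the 48 h combination against quizartinib and 1 for 5 days against 48 h. Without a filter on FPKM survivors had 0. Leaving out 1 library gave 1 to 3 members with dexamethasone, 3 to 4 with the combination against DMSO, and 0 in survivors.

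Over 47 member results with an unadjusted p under 0.1, 550 of 596 alternatives kept direction and side of the threshold, 31 lost the call, 15 gained it and 0 reversed. For the other member results, 74 of 958 alternatives changed sign and 1 was called. Same-numbered libraries deviated together (correlation over 0.1) in 26 of 45 pairs of the drug experiment and 0 of 12 of the recovery experiment. The labels do not say what the numbers mark, and the fit without the block was kept. As a hint from the data, not the design, 16 of 18 drug libraries and 8 of 8 recovery libraries correlated best with their own number. In the recovery experiment, with 2 libraries per group, the deviations of a pair mirror each other. Its 8 libraries are therefore not separate outcomes, and its same-number correlations were only 0.0119 to 0.0862. With the replicate block the 48 h combination against quizartinib had 2 members, with CD86 called (edgeR adjusted p = 0.0443), and dexamethasone alone called CD47 (0.0423). Over all genes, compared groups only called 579 with dexamethasone against 1993, and no filter called 727 in survivors against 2630. For the drug interaction, DESeq2 called 597, the block 572 and compared groups only 189, against 367. Quantile normalization moved the share of higher calls in survivors from 56.0% to 46.0%, and at 13 days against survivors from 20.9% to 39.5%. The causes were not tested. Low counts of CD86, CD93 and HAVCR2 limit their precision.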

Other observations

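In the recovery experiment CLEC12A, CD93 and HAVCR2 were higher in replicate 2 in 4 of 4 groups and CD38 was higher in replicate 1 in 4 of 4 groups. Of 18098 tested genes, which do not include CD93, 17.2% kept 1 order of the replicates in all groups.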
